A study of Arabidopsis thaliana with 36 samples.

Results

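Intact seedlings of Arabidopsis thaliana were compared between the International Space Station and a ground control, across all genes on the Affymetrix ATH1 array. These whole-plant samples make up 6 of the 36 arrays of the series, 3 from flight and 3 from ground control, and were chosen by their labels: the flight and ground control arrays of plates 2, 4 and 6 that name no organ. The other 30 arrays hold leaves, hypocotyls or roots, 10 arrays for each organ. All plants of both groups were 12 days old, carried a GFP reporter transgene (3 lines, driven by the Adh promoter, the synthetic auxin response element DR5 or the 35S promoter) and grew on upright plates of solid medium. Whole plants are labelled cultivar WS, whereas the organs are labelled as 60% WS and 40% Col-0.

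Flight seedlings germinated in orbit and were fixed there in RNAlater, frozen and returned to Earth. Ground control seedlings grew in a unit of the same kind inside a chamber at the Kennedy Space Center that replayed the cabin's recorded conditions, and were started later than the flight plants for that reason. Each environment was 1 growth run in 1 growth unit, so that flight and any other difference between these runs cannot be told apart. The 3 arrays of a group came from 3 plates of the same run. The labels do not say how many seedlings, or which reporter lines, went into each whole-plant array. The p-values therefore measure only the spread between plates of a run.

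Plants sense bending, touch and wounding within minutes through calcium influx, and a shared set of early genes follows: calmodulin-like proteins, WRKY, ERF and zinc finger transcription factors, and xyloglucan endotransglucosylases that cut and rejoin wall polymers. Jasmonate, a hormone made from plastid lipids, carries part of the wound response, and its JAZ repressors are among its own early targets. In seedlings, elongation depends on expansins that loosen the wall, and leaf transcripts are dominated by light harvesting proteins of the chloroplast.

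MAS5 signals, linear and scaled by the authors to a trimmed mean of about 500 on each array, were used throughout. The median signal ran from 173.6 to 185 on flight arrays and from 175.1 to 184 on ground control arrays. Log2 signals of the 14387 probe sets with a mean signal of at least 100 correlated between arrays of a group at an r of 0.92 to 0.943, and between arrays of different groups at 0.891 to 0.954, across probe sets. The 3'/5' signal ratio of GAPDH, a gauge of RNA length, was 6.67, 4.74 and 5.4 in flight plants of plates 2, 4 and 6, and 6.02, 4.66 and 6.53 in ground control plants, so that the groups overlapped. With 3 arrays a group, precision is limited by their number.

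The whole-plant label was checked against leaf and root genes. Over 31 genes of light harvesting and photosynthesis the mean log2 signal was 12.45 to 12.9 in flight plants and 12.8 to 13.15 in ground control plants. The same genes lay at 13.82 to 14.48 in leaves and at 8.68 to 9.88 in roots. Over 27 root marker genes the mean log2 signal was 6.21 to 6.62 in flight plants and 6.06 to 6.76 in ground control plants, against 4.65 to 5.93 in leaves and 7.82 to 8.88 in roots. On both lists whole plants lay between leaves and roots, and the root markers did not separate the groups. Hypocotyls lay at 12.11 to 12.58 on the photosynthesis list, which overlaps the range of flight whole plants. On the mean log2 signal of the root markers they lay at 4.56 to 5.23, below all whole plants. Summed signals of these markers overlapped, at 3869 to 5948 in hypocotyls and 4075 to 7786 in whole plants. Only 12 of the 27 had a mean signal of at least 100 in whole plants. The 2 materials were thus told apart only by the mean log2 signal of the root markers. In samples of this kind, fewer cells of a type and less RNA per cell cannot be told apart.

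Log2 signals of 22746 probe sets were compared between flight and ground control plants with limma. A single probe set passed an adjusted p of 0.05 (0.0044% of those tested), while 1030 had an unadjusted p under 0.05. It belongs to AT3G30620, which the reference annotates as a pseudogene, and its signals were 39.7, 49.5 and 41.4 in flight plants of plates 2, 4 and 6, against 1.30, 1.61 and 1.57 in ground control plants. All of them lie far below the median signal of their arrays. Its log2 fold change of 4.86 (standard error, SE, 0.22; adjusted p = 0.0175 by limma) did not pass with an offset, with limma's trend and robust settings, by the methods' t-test or when any array was left out.

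The study itself used an unadjusted p under 0.01 and a change of at least 1.9-fold. On these terms 13 probe sets of mean signal of at least 100 were higher in flight (0.0904% of 14387) and 12 were lower (0.0834%). Probe sets meeting these thresholds are termed called below. Below a mean signal of 100, 128 of 8359 probe sets were called higher (1.53%) and 56 lower (0.67%). Of the 14387 probe sets, 573 had all flight signals above all ground control signals (3.98%) and 851 had all of them below (5.92%). With a change of at least 1.9-fold in addition, these were 78 higher (0.542%) and 48 lower (0.334%). When limma's trend and robust settings let the expected spread depend on signal level, 77 were called higher (0.535%) and 36 lower (0.25%), 23 of the 25 calls among them, and no probe set passed an adjusted p of 0.05. With 1 array left out, the number called higher ran from 3 (without ground control plate 4) to 44 (without flight plate 2), and the number called lower from 2 (without ground control plate 4) to 18 (without flight plate 2). None of the 25 called probe sets passed adjustment, so each is a candidate and not an established change.

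**Figure D1:**
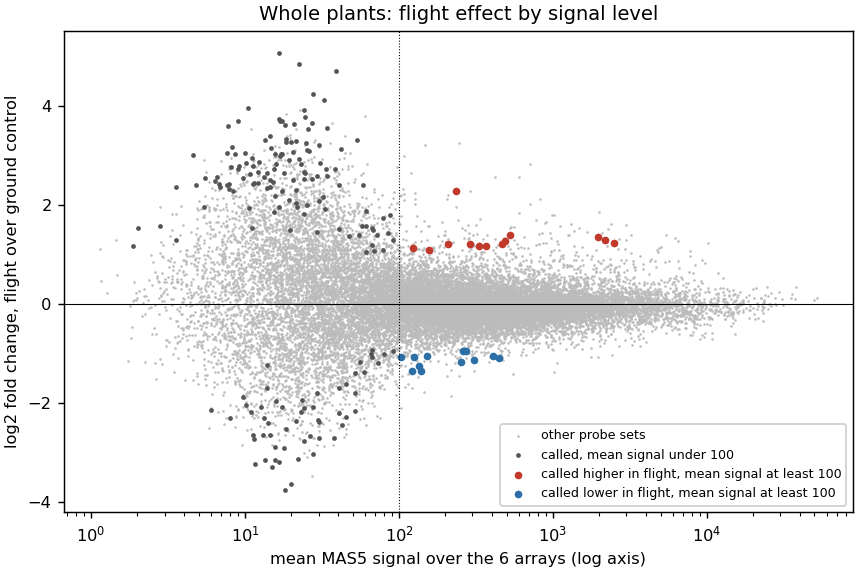
Log2 fold change of flight over ground control (y axis) against the mean MAS5 signal over the 6 whole-plant arrays (x axis, log scale), 1 point per probe set. The 13 called higher (red) and 12 called lower (blue) probe sets lie right of the dotted line at a signal of 100, and most of the called probe sets (dark grey) lie left of it.

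Among the 13 called higher were transcription factors and a MAP kinase kinase. For called genes that match 1 locus at a mean signal of at least 100, groups that do not overlap were a condition of naming. Their lack of overlap is thus no added support. WRKY22 (AT4G01250), a transcription factor downstream of MAP kinases in immunity, had signals of 362, 426 and 417 in flight plants of plates 2, 4 and 6, against 144, 174 and 201 in ground control plants. The flight arrays lay close together, all above the ground control arrays, and the log2 fold change was 1.23 (SE 0.23, adjusted p = 0.871 by limma). MKK9 (AT1G73500), a MAP kinase kinase that acts in ethylene and defence signalling, had 2940, 2195 and 3203 in flight plants and 930, 792 and 1682 in ground control plants. Its log2 fold change was 1.35 (SE 0.36), and the ground control array of plate 6 stood well above the other two. MYB4 (AT4G38620), a repressor of sinapate ester synthesis, had 389, 491 and 498 in flight plants and 189, 236 and 183 in ground control plants, a log2 fold change of 1.18 (SE 0.23). RAV2 (AT1G68840), a repressor of flowering, had 3010, 2478 and 3715 in flight plants and 1056, 958 and 1842 in ground control plants, a log2 fold change of 1.30 (SE 0.34). For MYB4 and RAV2, too, the groups did not overlap.

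AT1G15670, also known as KFB01 or KMD2, encodes a Kelch repeat F-box protein, the part of a ubiquitin ligase that selects its target. It had 766, 572 and 626 in flight plants and 273, 249 and 321 in ground control plants, and a log2 fold change of 1.22 (SE 0.23). AT3G13310, the chaperone gene DJC66, had 534, 637 and 909 in flight plants and 271, 218 and 371 in ground control plants, with a log2 fold change of 1.27 (SE 0.32). In both genes the lowest flight signal exceeded the highest ground control signal. AT5G46710 had 670, 708 and 880 in flight plants and 265, 220 and 395 in ground control plants, a log2 fold change of 1.40 (SE 0.30). It carries no name in the tables used here, and neither does AT2G33735 (log2 fold change 1.1). AT2G03540, annotated as a pseudogene, had a log2 fold change of 1.18. Adjusted p over the 13 ran from 0.871 to 0.966 by limma.

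The other 4 genes called higher encode enzymes or a storage protein. XTH23 (AT4G25810), a xyloglucan endotransglucosylase, had 156, 444 and 592 in flight plants and 47.2, 80.5 and 93.1 in ground control plants. Its log2 fold change of 2.28 (SE 0.57, 4.87-fold) was the highest of the 13, and the flight array of plate 2 lay far below the other flight arrays. Every ground control signal of XTH23 lay under 100, so that it passed the signal limit through flight arrays alone. FER1 (AT5G01600), the plastid ferritin that stores iron, had 3250, 2713 and 4528 in flight plants and 1036, 1569 and 1829 in ground control plants, a log2 fold change of 1.25 (SE 0.33). TAG1 (AT2G19450), the acyltransferase of the last step of storage oil synthesis, had 132, 209 and 171 in flight plants and 83.2, 81.9 and 63.6 in ground control plants, a log2 fold change of 1.15 (SE 0.27). It, too, passed the signal limit through flight arrays alone. UGT73C6, a flavonoid glucosyltransferase, was higher by 1.21 on the log2 scale, from a probe set that also matches other loci, so that the genes it reads cannot be told apart.

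Among the 12 called lower were wall, epidermis and ubiquitin ligase genes. EXPA5 (AT3G29030), an expansin, had 155, 137 and 166 in flight plants and 343, 462 and 247 in ground control plants, a log2 fold change of -1.16 (SE 0.30, adjusted p = 0.966 by limma). XTH13 (AT5G57540), a further xyloglucan endotransglucosylase, had 68.0, 74.3 and 88.5 in flight plants and 124, 253 and 232 in ground control plants, a log2 fold change of -1.34 (SE 0.34). All its flight signals lay under 100, so that it passed the signal limit through ground control arrays alone. Within EXPA5 and within XTH13 the flight plates lay close together and the ground control plates were spread. TRY (AT5G53200), a small MYB protein that keeps neighbouring epidermal cells from becoming trichomes, had 222, 192 and 147 in flight plants and 333, 358 and 374 in ground control plants. MYB106 (AT3G01140), a MYB factor of trichome branching and the cuticle, had 204, 145 and 193 in flight plants and 331, 305 and 395 in ground control plants. Their log2 fold changes were -0.94 (SE 0.24) and -0.93 (SE 0.25), the smallest of the 12.

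RHA2A (AT1G15100), a RING ubiquitin ligase that promotes abscisic acid responses, had 104, 89.4 and 103 in flight plants and 156, 235 and 231 in ground control plants, a log2 fold change of -1.05 (SE 0.26). The other 7 genes called lower have no name in the tables used here. AT2G26340 had 231, 201 and 153 in flight plants and 458, 410 and 387 in ground control plants, and AT2G21530 had 283, 302 and 267 in flight plants and 756, 531 and 552 in ground control plants. Their groups were far apart relative to the spread within them, with log2 fold changes of -1.12 (SE 0.25) and -1.09 (SE 0.24). AT2G47850 (-1.35), AT4G10470 (-1.25), AT4G12830 (-1.06), AT4G19440 (-1.06) and AT4G26860 (-1.03) completed the group. Of these, AT2G47850, AT4G10470 and AT4G12830 had every flight signal under 100 and passed the signal limit through ground control arrays alone.

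**Figure D2:**
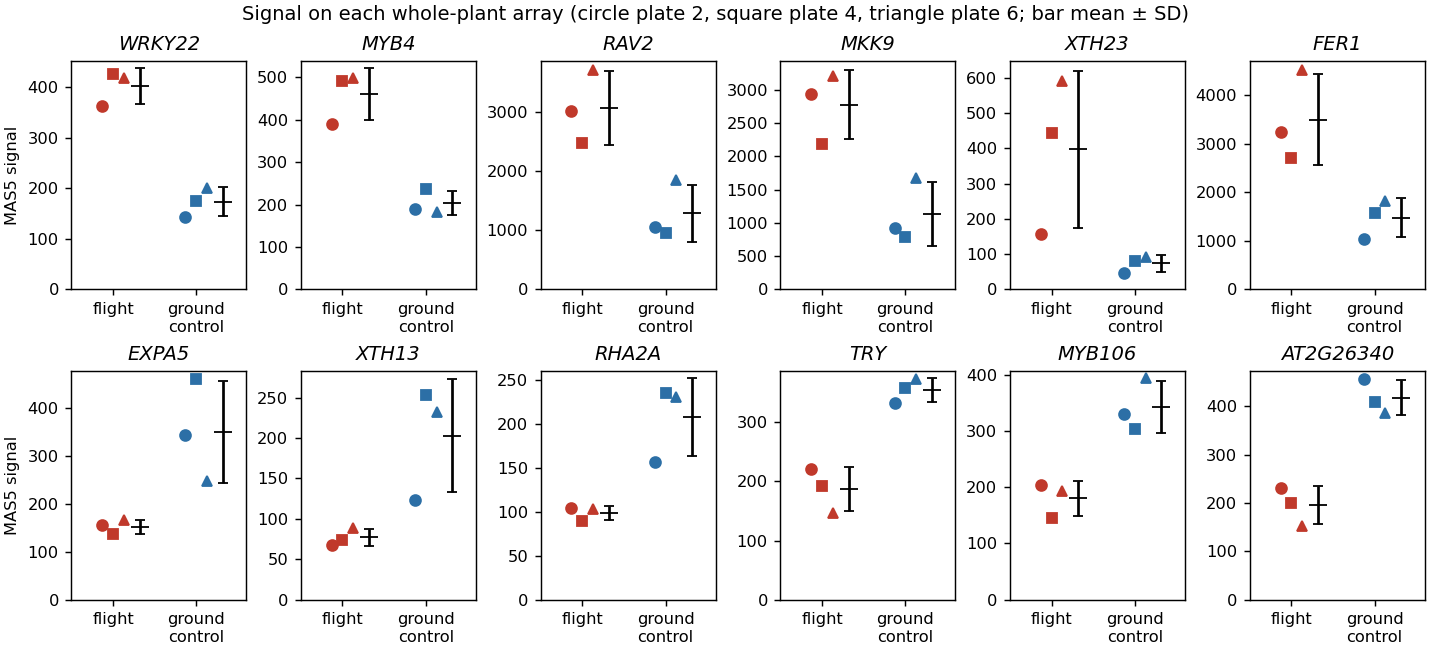
MAS5 signal (y axis, from 0) of 12 called genes on each whole-plant array, flight (red) left of ground control (blue), with plates 2, 4 and 6 as circle, square and triangle and the mean ± SD of 3 arrays as a bar. In the upper row flight signals lie above those of ground control and in the lower row below. None of the 12 genes overlaps between groups, which was a condition of their choice.

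Touch and rapid wound response genes were higher in flight as a group. Of 31 genes measured, 30 had a mean signal of at least 100, and all 30 had a positive log2 fold change, from 0.13 to 2.23, where 44.4% of all probe sets of such signal were positive. The median of the list was 1.09, against -0.04 over all probe sets of such signal, and 18 genes were higher by at least 1.9-fold. Only MKK9 was called, and 6 of the 30 had groups that did not overlap (3.98% of all probe sets were higher without overlap). The list was chosen with earlier results of this series known, so its direction is not independent evidence.

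Besides MKK9, the touch genes with the smallest p were ATL31, ERF105 and ERF1A. ATL31 (AT5G27420), a RING ubiquitin ligase of carbon and nitrogen responses, had 765, 971 and 1818 in flight plants and 404, 281 and 614 in ground control plants. ERF105 (AT5G51190), an ethylene response factor, had 956, 1222 and 1426 in flight plants and 403, 257 and 797 in ground control plants. Both had separate groups, with log2 fold changes of 1.42 (SE 0.45) and 1.44 (SE 0.46). ERF1A (AT4G17500), an activator of the same family, had 918, 1249 and 1138 in flight plants and 392.2, 309 and 861 in ground control plants, a log2 fold change of 1.21 (SE 0.43). TCH4 (AT5G57560), a xyloglucan endotransglucosylase known for its induction by touch, had 4330, 8416 and 6284 in flight plants and 2890, 1654 and 4899 in ground control plants. Its log2 fold change was 1.1 (SE 0.48), and its groups overlapped, since the ground control array of plate 6 lay above the flight array of plate 2.

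That overlap was a feature of the whole list. The mean log2 signal of the 30 touch genes was 9.78, 10.5 and 10.98 in flight plants of plates 2, 4 and 6, and 8.94, 8.72 and 10.23 in ground control plants. The ground control array of plate 6 thus lay within the flight range, between the flight arrays of plates 2 and 4. The median log2 fold change of the list was 1.57 without that array and 0.70 without the ground control array of plate 4, and it stayed positive when any 1 array was left out.

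**Figure D3:**
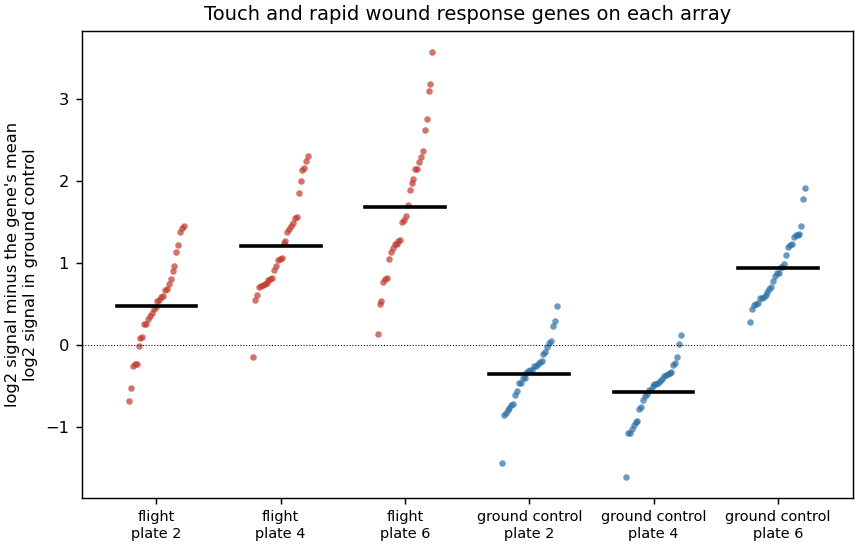
Log2 signal of 30 touch and rapid wound response genes on each array, relative to each gene's mean in ground control (y axis), with the mean of the list as a black bar. Flight arrays (red) have means of 9.78, 10.5 and 10.98 in absolute log2 signal and ground control arrays (blue) of 8.94, 8.72 and 10.23, so that ground control plate 6 lies above flight plate 2.

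Over 28 genes of the jasmonate pathway the median was 0.68, with 20 positive and 8 negative (44.4% of all probe sets with a mean signal of at least 100 were positive). None of the 28 was called, and 1 was higher and 1 lower without overlap, no larger a share than the 3.98% and 5.92% of all probe sets of such signal. AOC3 (AT3G25780), an allene oxide cyclase of jasmonate synthesis, had 450, 702 and 1201 in flight plants and 183, 189 and 439 in ground control plants. Its groups were separate, by a narrow margin between flight plate 2 and ground control plate 6, and its log2 fold change was 1.55 (SE 0.52). JAZ1 (AT1G19180), a repressor of jasmonate responses, had 4380, 9024 and 14403 in flight plants and 2812, 2371 and 5957 in ground control plants, with a log2 fold change of 1.28 (SE 0.57) and overlapping groups. CORI3 (AT4G23600), a jasmonate-induced cystine lyase, went the other way, with 394, 510 and 196 in flight plants and 755, 637 and 600 in ground control plants, a log2 fold change of -0.96 (SE 0.40). The mean of the list was 8.39, 9.32 and 9.59 in flight plants and 8.36, 8.17 and 9.07 in ground control plants, again with plate 6 highest in both groups, and the median was 0.27 to 0.48 without flight plate 4 or 6 or ground control plate 2 or 4.

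Genes of the cold and DREB regulon, which answer to cold, drought and salt, had a median of 0.67 over 18 genes, 15 of them positive. Of all probe sets with a mean signal of at least 100, 44.4% were positive. COR15B (AT2G42530), a chloroplast protein that protects membranes in the cold, had 332, 342 and 403 in flight plants and 208, 211 and 138 in ground control plants. RAV1 (AT1G13260), a repressor of growth, had 8870, 8501 and 13399 in flight plants and 5382, 3820 and 6518 in ground control plants. Only these 2 of the 18 were higher without overlap (3.98% of all probe sets of such signal were), each with a log2 fold change of 0.97. DREB2A (AT5G05410), an activator of drought and heat genes, had 451, 1488 and 3029 in flight plants and 332, 236 and 598 in ground control plants, and ZAT10 (AT1G27730), a zinc finger repressor, had 888, 1946 and 3279 in flight plants and 392.3, 544 and 1223 in ground control plants. In both genes the flight arrays spanned a wide range and the lowest, plate 2, lay below ground control plate 6. The log2 fold changes were 1.81 (SE 0.76) and 1.48 (SE 0.64), and the median of the list was 0.32 without flight plate 6.

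The study followed 5 genes by quantitative PCR in roots, which it had picked for their change on arrays of this flight run, so that they are not independent of it. In whole plants DDF1 (AT1G12610), a relative of the CBF cold activators, had 76.4, 268 and 443 in flight plants and 42.1, 68.4 and 176 in ground control plants. JAZ7 (AT2G34600) had 62.7, 188 and 613 in flight plants and 57.7, 51.8 and 167 in ground control plants. For DDF1 and JAZ7, as for TCH4 and DREB2A above, the mean was higher in flight (log2 fold changes 1.39 and 1.29), with overlapping groups. ELIP1 (AT3G22840), an early light-induced protein of the thylakoid, had a low signal of 34.4, 86.4 and 118 in flight plants and 125, 115 and 71.9 in ground control plants, a log2 fold change of -0.52 (SE 0.52). None of the 5 genes was called.

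Heat shock response genes had a smaller and more even shift. Their median was 0.45 over 21 genes, 18 of them positive (44.4% of all probe sets of such signal were). Of the 21, 7 were higher without overlap (3.98% of all probe sets of such signal were), although 0 were called. HSP70-4 (AT3G12580), a cytosolic chaperone, had 4870, 2509 and 5799 in flight plants and 1666, 2066 and 2374 in ground control plants, a log2 fold change of 1.04 (SE 0.38). HSP17.6C (AT1G53540), a small heat shock protein, had 226, 359 and 761 in flight plants and 151, 193 and 117 in ground control plants, a log2 fold change of 1.39 (SE 0.49). HSFA3 (0.81) and HSFA7A (0.67), heat shock transcription factors, had separate groups as well. The mean of the list was 8.93, 9.05 and 9.38 in flight plants and 8.56, 8.7 and 8.73 in ground control plants, so that here no array of one group reached into the other, although the median was 0.27 without flight plate 6.

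Among wall genes, expansins ran lower. Over 16 expansins the median was -0.35, with 11 negative and 5 positive (55.6% of all probe sets of such signal were negative). Of the 16, 5 were lower without overlap (5.92% of all probe sets of such signal were). EXPA4 (AT2G39700) had 1630, 1266 and 1544 in flight plants and 2031, 3038 and 2399 in ground control plants, a log2 fold change of -0.74 (SE 0.25), besides EXPA5 above. EXPA7, an expansin of root hairs, and EXPA2, one of germinating seeds, were called in opposite directions (log2 fold changes -3.12 and 2.86) from mean signals of 4.98 in flight and 39.4 in ground control for EXPA7, and of 54.3 and 7.22 for EXPA2, all below 100. Xyloglucan endotransglucosylases did not move together: over 21 genes the median was 0.32, with 12 positive and 9 negative, and it was 0.14 without flight plate 4. Of all probe sets of such signal, 44.4% were positive. XTH13, called lower above (-1.34), is not among these 21. XTH30 (AT1G32170) had 305, 403 and 301 in flight plants and 194, 231 and 230 in ground control plants, a log2 fold change of 0.62 (SE 0.23). XTH25 had a log2 fold change of -3.07, at mean signals of 6.54 for flight plants and 44.0 for ground control plants.

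Light harvesting and photosynthesis genes were lower by small amounts. Of 31 genes, 29 had a negative log2 fold change (55.6% of all probe sets of such signal did), from -0.62 to 0.08, with a median of -0.25, and 5 were lower without overlap (5.92% of all probe sets of such signal were). PSAN (AT5G64040), a photosystem I subunit, had 6190, 5663 and 6740 in flight plants and 9477, 9812 and 9035 in ground control plants, a log2 fold change of -0.61 (SE 0.20). LHCA1 (AT3G54890), an antenna protein of photosystem I, had 8960, 6169 and 6965 in flight plants and 12401, 11275 and 9912 in ground control plants, and PSBX (AT2G06520), of photosystem II, had 5900, 6121 and 3896 in flight plants and 8021, 9088 and 6809 in ground control plants. These 3 genes were separate between groups. For the whole list the mean was 12.9, 12.87 and 12.45 in flight plants and 13.15, 13.06 and 12.8 in ground control plants, so that flight plates 2 and 4 lay above ground control plate 6. Without flight plate 6 the median was -0.10. A smaller share of leaf RNA and a lower level per leaf cell cannot be told apart here.

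Of 23 photoreceptor and light signalling genes, 3 were lower without overlap and 0 were higher (5.92% and 3.98% of all probe sets of such signal were), with a median of -0.03. HY5 (AT5G11260), the transcription factor that promotes photomorphogenesis, had 578, 484 and 411 in flight plants and 605, 1307 and 1055 in ground control plants. RPT2 (AT2G30520), a partner of phototropins in phototropism, had 161, 143 and 94.5 in flight plants and 308, 285 and 198 in ground control plants. Their log2 fold changes were -0.95 (SE 0.35) and -1.0 (SE 0.32). Flavonoid and anthocyanin genes had a median of -0.23 over 16 genes, and one of 0.02 without flight plate 2 or 0.01 without ground control plate 2. Of the 16, 9 were negative and 7 positive (55.6% of all probe sets of such signal were negative). MYB111 (AT5G49330), an activator of flavonol synthesis, was higher, with 188, 169 and 180 in flight plants and 90.9, 111 and 93.1 in ground control plants, a log2 fold change of 0.87 (SE 0.21) that fell short of 1.9-fold.

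In the circadian clock, 2 of 14 genes were lower without overlap (5.92% of all probe sets of such signal were), and both are the morning-phased MYB factors at its core. LHY (AT1G01060) had 902, 1502 and 857 in flight plants and 2415, 1765 and 1801 in ground control plants, and CCA1 (AT2G46830) had 739, 916 and 831 in flight plants and 1841, 1226 and 1047 in ground control plants. The log2 fold changes were -0.91 (SE 0.31) and -0.69 (SE 0.29), and the median of the 14 was 0.02. The clock gene LUX (AT3G46640), named here in addition and not among the 14, was higher without overlap (3.98% of all probe sets of such signal were). It had 1870, 2122 and 3802 in flight plants and 870, 1101 and 1614 in ground control plants. Its log2 fold change was 1.1 (SE 0.39), and it was not called. The time of day of each harvest is not given in the labels. Mitotic cell cycle genes had a median of -0.19, with 14 of 17 negative (55.6% of all probe sets of such signal were). The median was -0.05 without flight plate 6. MCM2 (AT1G44900), of the replication helicase, had 380, 195 and 182 in flight plants and 431, 458 and 497 in ground control plants, and PCNA1 (AT1G07370), the polymerase clamp, had 997, 970 and 786 in flight plants and 1714, 1214 and 1243 in ground control plants. Both were separate between groups, with log2 fold changes of -0.96 (SE 0.34) and -0.59 (SE 0.25), again beside 5.92% of all probe sets.

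Seed storage and late embryo genes were on average higher in flight plants, at low signals. Summed over 15 genes, the signal was 540, 2542 and 1258 in flight plants of plates 2, 4 and 6, and 368, 214 and 478 in ground control plants. These sums were separate between groups, and flight plate 4 stood out. The mean log2 signal of the 15 genes was 3.9, 5.92 and 5.33 in flight plants, and 3.71, 3.28 and 4.39 in ground control plants. By that measure the groups overlapped, since flight plate 2 lay below ground control plate 6. CRA1 (AT5G44120), a cruciferin storage protein, had 36.8, 392.2 and 86.1 in flight plants and 22.3, 4.52 and 37.8 in ground control plants, with overlapping groups. ECP63 (AT2G36640), a late embryo protein, had 134, 131 and 474 in flight plants and 73.4, 64.7 and 66.4 in ground control plants, a log2 fold change of 1.57 (SE 0.54). SESA1, a storage albumin, and OLEO1, an oil body protein, were separate between groups with every signal under 100. Of the 15 genes, 12 had a positive log2 fold change, with a median of 1.47, and 4 had a mean signal of at least 100, which they reached through flight arrays alone. The median of these 4 was 2.07, and 1.0 without flight plate 4, and is no support for a change since the signal limit selected them.

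Senescence and dark-induced genes had a median of 0.72 over 9 genes, and one of 0.42 without flight plate 2. Of the 9, 6 were positive (44.4% of all probe sets with a mean signal of at least 100 were). ORE1 (AT5G39610), a NAC factor that promotes leaf senescence, had 172, 137 and 99.8 in flight plants and 27.0, 46.5 and 43.8 in ground control plants, a log2 fold change of 1.81 (SE 0.34) that was called at a mean signal of 87.7. NAP (AT1G69490), a NAC factor of the same process, had 481, 113 and 373 in flight plants and 121, 142 and 88.6 in ground control plants, with overlapping groups, and the senescence protease SAG12 stayed under a signal of 100 on every array. Among iron genes, FER3 (AT3G56090), a further plastid ferritin, had 1250, 1248 and 1272 in flight plants and 836, 810 and 989 in ground control plants, a log2 fold change of 0.52 (SE 0.21), beside FER1 above. Only 3 of 6 iron genes had a mean signal of at least 100, and all 3 are ferritins. The third of these ferritins had a log2 fold change of 0.34, with overlapping groups. Over all 6 iron genes the median was 0.07, with 3 positive.

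The remaining lists had medians from -0.24 to 0.18. Hypoxia genes, which would mark oxygen shortage around roots, had a median of -0.02 over 14 genes with 0 separate between groups. Auxin response and transport genes had -0.05 over 22, and 3 of the 22 were higher and 0 lower without overlap, beside 3.98% and 5.92% of all probe sets of such signal. The median was 0.11 over 20 abscisic acid and drought genes, 0.13 over 12 oxidative stress genes, 0.04 over 8 nitrate assimilation genes, 0.18 over 10 phosphate starvation genes, -0.03 over 14 glucosinolate genes and 0.00 over 11 lignin and secondary wall genes. That of the phosphate genes was 0.60 and 0.41 without plate 4 of flight or ground control, and -0.02 and -0.19 without plate 6 of flight or ground control, so that its sign depends on the plates. No gene of these lists was called at a mean signal of at least 100. In the abscisic acid list ANAC055 (AT3G15500) was higher without overlap, with 260, 128 and 202 in flight plants and 24.2, 12.2 and 92.6 in ground control plants. Its log2 fold change was 2.65 (SE 0.78), and it was called with limma's trend and robust settings. It passed the signal limit through flight arrays alone. Below a mean signal of 100, the dehydrin gene XERO1 of the abscisic acid list was called higher, from mean signals of 122 in flight and 36.05 in ground control. The auxin repressor gene IAA29 had a log2 fold change of 2.61, at signals of 160, 70.7 and 49.6 in flight plants and 13, 4.69 and 40.5 in ground control plants. Salicylate and pathogen defence genes had a median of -0.24 over 19 genes, in which AIG1, a bacterial effector-induced GTPase, was higher without overlap (0.78) and PCC1, a pathogen and clock controlled gene, lower (-0.90). The median of these 19 was 0.30, 0.14 or 0.16 without ground control plate 2, flight plate 2 or ground control plate 6, so that no direction can be given. That of the abscisic acid genes was -0.06 without flight plate 6. Reference genes had a median of -0.01 over 8 genes.

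**Figure D4:**
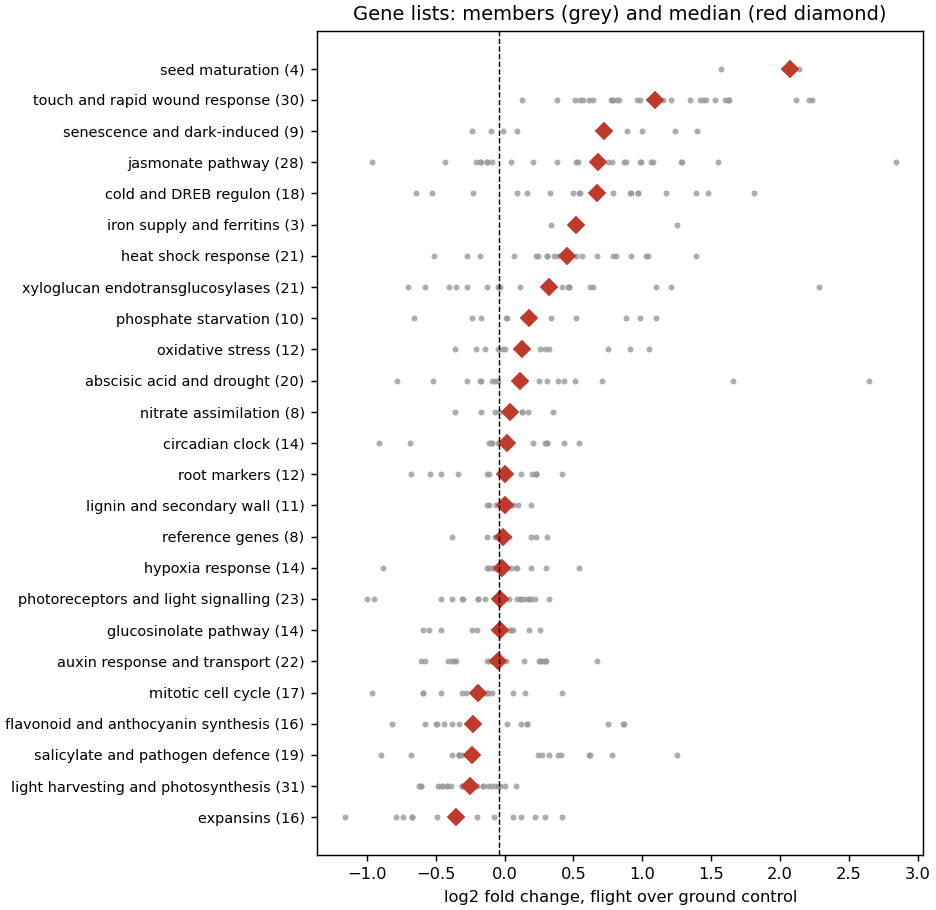
Log2 fold change of flight over ground control (x axis) for members of the gene lists with a mean signal of at least 100 (grey points, number in brackets) and their median (red diamond), with the median of all such probe sets as a dashed line at -0.04. Touch genes (median 1.09) lie wholly above 0, and expansins (-0.35) and photosynthesis genes (-0.25) are the lowest medians. The 4 seed maturation genes passed the signal limit through flight arrays alone.

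Genes called in the organs were examined next in whole plants, whose arrays are separate from those of the organs but come from the same plates and growth runs. Of 49 probe sets called higher in leaves at a mean signal of at least 100, 45 had such a signal in whole plants, and 44 of these were higher there (97.8%, against 43.7% of 12563 probe sets at such signal in both). Their median log2 fold change in whole plants was 1.14, and 25 were higher without overlap (3.9% of those 12563 were). Of 155 called higher in roots, 148 had such a signal in whole plants, and 145 of these were higher there (98%, against 44.6% of all), with a median of 0.93 and 24 without overlap (3.8% of all). Of 25 called higher in hypocotyls, 22 had such a signal, and 21 of these were higher in whole plants (95.5%, against 43.9% of all), with a median of 1.09 and 8 without overlap (3.8% of all). Called higher in whole plants as well were 6 of 45, 2 of 148 and 1 of 22. Of all 14387 probe sets of such signal in whole plants, 0.0904% were called higher.

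Fewer genes were called lower in the organs. Of 21 called lower in hypocotyls, 17 had such a signal in whole plants, and 11 of these were lower there (64.7%, against 56.1% of all), with a median of -0.14. In leaves 4 of 5 (80%, against 56.3% of all) and in roots 5 of 7 (71.4%, against 55.4% of all) were lower in whole plants. Whether the agreement differed between the directions was not tested. Of the 25 probe sets called in whole plants, 9 were called in the same direction in at least 1 organ. They were 36% of the 25, and 3.54% of the 254 called in any organ. Of all 14387 probe sets of such signal in whole plants, 0.0904% were called higher and 0.0834% lower. The share of all probe sets called in any organ was not computed. The 9 were WRKY22, MYB4, MKK9, RAV2, AT1G15670, AT3G13310, XTH23 and UGT73C6, all higher, and RHA2A, lower. Across all probe sets with a mean signal of at least 100 in both, the log2 fold changes of whole plants and of leaves, hypocotyls or roots had an r of 0.40, 0.36 and 0.40, over 12563, 12351 and 12585 probe sets that are not independent of each other.

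**Figure D5:**
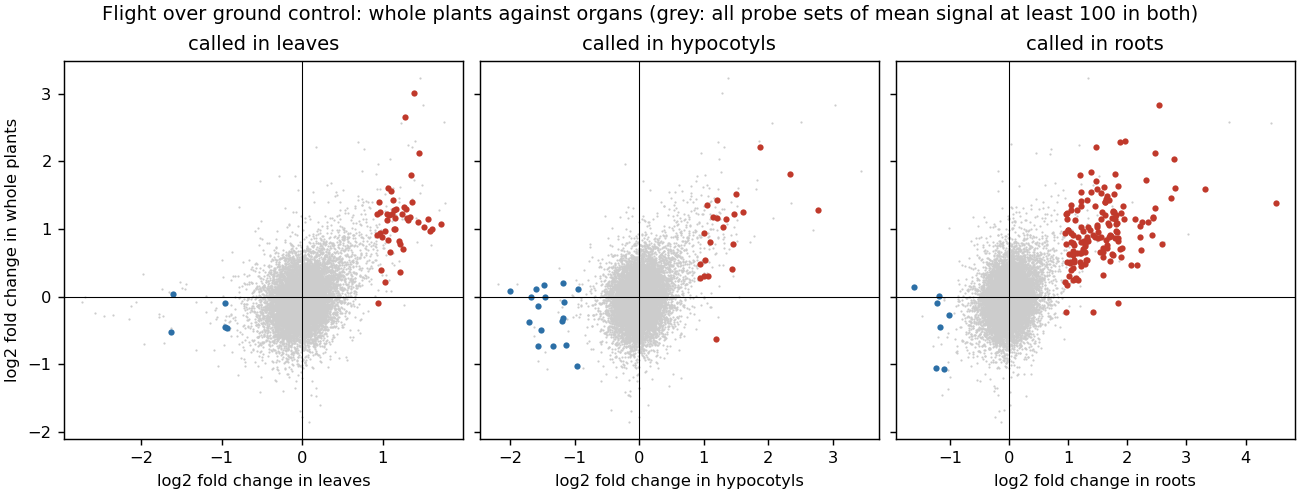
Log2 fold change of flight over ground control in whole plants (y axis) against that in leaves, hypocotyls or roots (x axes), for probe sets with a mean signal of at least 100 in both (grey), those called higher in the organ (red) and those called lower (blue). Of the red points, 44 of 45, 21 of 22 and 145 of 148 lie above 0 on the y axis, whereas the blue points lie on both sides of 0.

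Whether the flight effect in whole plants differed from the mean effect of the 3 organs was tested as an interaction in limma over all 36 arrays. It differed for 6 of 22746 probe sets at an adjusted p under 0.05 (0.0264%), of which 1 had a mean signal of at least 100 in whole plants, and 1452 had an unadjusted p under 0.05. That gene was AT2G26340, with a log2 fold change of -1.12 in whole plants, against -0.01 in leaves, 0.09 in hypocotyls and 0.07 in roots, a difference of -1.17 (SE 0.22, adjusted p = 0.0382 by limma). AT2G47850 (difference -1.34), AT1G11060, the cohesin release factor WAPL1 (-1.58), AT3G24570 (-0.82) and TAG1 (1.11) came next among probe sets of such signal, with adjusted p of 0.0537 to 0.0627 by limma. FER1, which was higher in whole plants by 1.25, had -0.07 in leaves, -0.20 in hypocotyls and 0.11 in roots, but the difference of 1.30 (SE 0.45) did not pass (adjusted p = 0.492 by limma). Cultivar, sample preparation and intact against separated material all differ between whole-plant and organ arrays and cannot be told apart. As one mark of preparation, the signal of the dap control RNA was 1.62 to 49.9 on whole-plant arrays and 338.5 to 2187 on organ arrays.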

How the data were processed

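Whole plants were measured on 3 flight and 3 ground control ATH1 arrays. RNA was amplified, biotin-labelled and hybridised, and the authors deposited MAS5 signal intensities on a linear scale, computed with Affymetrix Expression Console (versions not given in the sources used here). The signals were as deposited, and those of flight plate 2 carry 3 digits. Deposited columns of the authors' own comparisons (fold changes, p- and q-values) were not used. A deposited description of them gives more replicates a group than the labels, which were followed here, give for whole plants.

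Log2 signals of 22746 probe sets, without 64 controls, were fitted in limma 3.58.1 (R 4.3.3; lmFit and eBayes, Benjamini-Hochberg). Of these, 21569 match 1 locus, 1023 several and 154 none, and 22246 have a locus in the reference table (TAIR10.1). Fold changes are ratios of geometric means. A gene on a list was read from its brightest probe set that matches 1 locus. The script was tested on simulated data.

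Members and gene lists were chosen with earlier results of these data known. Named genes were the probe sets past adjustment, up to 15 called per direction and up to 4 of each list by smallest p. Added were the 5 genes of the study's quantitative PCR and those called in an organ too. The 5 leading ones of the test against organs were named as well. The up to 15 per direction had to match 1 locus, have a mean signal of at least 100 and have groups that do not overlap. Alternatives covered normalization, an offset of 50, signal filter, variance model, the methods' t-test, plate as a block, all 36 arrays in 1 fit and arrays left out.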

Additional observations from a re-analysis of the deposited data

Results flagged for a closer look

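The flight effect of 6 probe sets differed between whole plants and the mean of the 3 organs, by a test of that difference in limma at an adjusted p under 0.05. Lower in whole plants were AT5G60720 (difference -2.71, standard error 0.46, adjusted p = 0.0195 by limma), and AT2G26340 (difference -1.17, standard error 0.22, adjusted p = 0.0382 by limma). Higher in whole plants were CCD7 (2.67, standard error 0.47, adjusted p = 0.0243 by limma), a carotenoid cleavage dioxygenase of strigolactone synthesis, AT4G32270 (2.13, standard error 0.34, adjusted p = 0.0156 by limma), AT3G60200 (2.06, standard error 0.39, adjusted p = 0.0382 by limma) and AT1G66660 (1.28, standard error 0.24, adjusted p = 0.0382 by limma). AT2G26340 alone had a mean signal of at least 100 in whole plants. AT5G60720 had signals of 4.59, 5.59 and 7.39 in flight plants of plates 2, 4 and 6, against 22.8, 64.4 and 40.2 in ground control plants. Material, cultivar and array preparation cannot be told apart in this difference.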

How the results depend on the processing

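The single probe set at an adjusted p under 0.05 stood alone with quantile normalization and 75th percentile scaling as well. The count was 0 with an offset of 50, the signal filter, limma's trend and robust settings, the methods' t-test or any array left out, and 21 with all 36 arrays in 1 fit. The 13 calls higher and 12 lower became 52 and 11 with the offset, 52 and 30 with the filter, 77 and 36 with trend and robust settings, 5 and 9 with the methods' t-test, and 44 and 40 with all 36 arrays. Leaving out arrays gave 3 to 44 higher (44 without flight plate 2, 37 without ground control plate 6, 7 without flight plate 6, 4 and 3 without ground control plates 2 and 4) and 2 to 18 lower (2 and 7 without ground control plates 4 and 6, 4 without flight plate 6). The 6 differences from the organs became 15 with quantile normalization, 0 with the offset, 19 with the filter, 10 with trend and robust settings, and 10 to 87 with an array left out. The causes were not tested.

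With plate as a replicate block the counts were 0 at an adjusted p under 0.05, 45 higher, 7 lower and 3 differences from the organs. Same-numbered plates deviated together at a correlation of 0.312 for plate 2, 0.018 for plate 4 and 0.287 for plate 6. The number marks the plate's slot in units of the same kind, not a shared unit or day, and flight plate 4 correlated best with ground control plate 2 (0.064), so the plates were not treated as pairs.

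Over arrays left out, list medians ran from 0.27 to 0.54 for heat shock, -0.06 to 0.21 for abscisic acid, -0.21 to 0.30 for salicylate, -0.19 to 0.60 for phosphate, 0.14 to 0.24 for xyloglucan endotransglucosylases and -0.09 to 0.26 for clock genes. All 78 genes followed across these settings kept their direction wherever they were fitted. Most were picked from these same arrays by small p or by groups that do not overlap. Where groups do not overlap, leaving out an array cannot reverse the direction, so this outcome was largely fixed by the choice. Of the 31 called among them, 4 to 15 lost the call under the alternatives with all arrays other than the filter, which kept all 25 that it left, and 15 to 22 with an array left out. A filter on detection calls was not run, since none were used here. With 3 arrays a group, the number of arrays limits the precision.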
